A study of Mus musculus with 6 samples.

Results

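Aminoacyl-tRNA synthetases are the enzymes that join each amino acid to its tRNA, and a mouse cell makes 1 set for the cytosol and another for the mitochondrial matrix, most of it encoded by separate nuclear genes. The genes described here are 36 such enzymes, chosen by name, 20 cytosolic and 16 mitochondrial (names ending in 2), out of 19938 genes with 1 symbol on the array. Of these, 34 were measured, 18 cytosolic and 16 mitochondrial. The probe set of Aars, the alanine enzyme gene, also carried a second gene's name and was not read, and Dars, the aspartate enzyme gene, was not named by the annotation used. RNA came from AML-12 cells, a mouse hepatocyte line, that stably carried a pSUPER.retro.puro retrovirus. In the siMnSOD group (3 arrays) it expressed a hairpin with 20 nt of Sod2 sequence, intended to lower MnSOD only mildly, and in the siScramble group (3 arrays) a hairpin with 20 nt that recognises no gene. Cells of both groups had been selected with 10 ug puromycin for 2 weeks, and the arrays drew on 3 frozen batches of cells. The labels call the arrays of a group biological replicates, but do not say whether cells came from separate transductions or which frozen batch each array used, so errors measure the spread between these samples, which may be technical. In bulk RNA a lower level per cell and fewer cells expressing a gene cannot be told apart. MnSOD is the superoxide dismutase of the mitochondrial matrix, and the comparison asked how its loss altered gene expression.

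Cytosolic synthetases feed the bulk of protein synthesis. Several of them, with the proteins AIMP1, AIMP2 and EEF1E1 (AIMP3), form the multi-synthetase complex, and the others are free. When a synthetase lacks its amino acid, uncharged tRNA activates the kinase GCN2, translation slows and the transcription factor ATF4 is made, which in turn induces amino acid synthesis genes and many cytosolic synthetase genes. Mitochondrial synthetases charge the tRNAs that translate the few proteins encoded by mitochondrial DNA, which are parts of the respiratory chain or of ATP synthase.

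Sod2 read 98.8, 121 and 52.3 intensity units on siMnSOD arrays 1, 2 and 3 and 248, 254 and 293 on siScramble arrays 1, 2 and 3, so the hairpin group was lower on every array (log2 difference −1.63, SE 0.30, adjusted p = 0.037 in limma). That call was lost without siMnSOD array 1 or 2 or siScramble array 1 or 2 (adjusted p from 0.072 to 0.13) and with median-centred arrays (0.069). Among hepatocyte markers, Hnf4a, Apob, Krt8 and Krt18 were bright, whereas Alb, Ttr and Cps1 lay at or under a background guide of 19.4 units, the 95th percentile of olfactory receptor genes. The summed level of 13 hepatocyte markers was 15906 to 18333 units with siMnSOD and 11290 to 15322 with siScramble. The brightest were Krt8 (mean 8460 units with siMnSOD, 5673 with siScramble) and Krt18 (5747 and 5388). Their log2 differences were 0.59 (adjusted p = 0.12 in limma) and 0.13, and the median over the 13 markers was 0.07. Of the 13, 1 rose, Hnf4a (1.09, SE 0.14, adjusted p = 0.013). All 34 synthetase genes lay above the background guide. Summed over 5 genes each, markers of macrophages (98.4 to 117 units with siMnSOD, 107 to 126 with siScramble), endothelium (78.3 to 99.96 and 78.9 to 95.3) and stellate cells or fibroblasts (116 to 145 and 122 to 142) overlapped between groups. At or under the guide lay 3 of the 5 macrophage, 4 of the 5 endothelial and 3 of the 5 stellate or fibroblast markers, so this overlap says little. The summed level of 4 biliary markers did not overlap (3894 to 4180 with siMnSOD, 1904 to 3292 with siScramble). Of these, Sox9 fell (−0.86, SE 0.14, adjusted p = 0.027) and Krt7 (1.15) and Krt19 (0.70) had positive differences that did not pass. The part of these marker differences in the results below was not tested. Array 3 stood apart in both groups: across probe sets, arrays 1 and 2 correlated at 0.9921 (siMnSOD) and 0.9934 (siScramble), siMnSOD array 3 at 0.9843 and 0.9847 with its own group, and siScramble array 3 at 0.9762 and 0.9763.

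Most cytosolic synthetase genes were lower in siMnSOD cells, but only 2 of them passed the test over all genes. Of 18 measured, 12 had negative and 6 positive log2 differences, with a median of −0.39 and a range from −0.83 (Eprs) to 0.66 (Qars), while the median of all genes was 0.01. The tryptophan enzyme gene Wars and the serine enzyme gene Sars fell at an adjusted p under 0.05, and none rose. Over all genes 1.58% passed in that direction (316) and 2.17% in the other (432), and with arrays centred on their medians 140 and 365. Without siScramble array 3, 9 cytosolic genes fell and 1 rose, beside 1119 and 1119 of all genes. Without any other array 0 or 1 cytosolic gene fell, beside 25 to 201 of all genes. The values of both groups did not overlap for 8 cytosolic genes that were lower and 2 that were higher, against 9.73% and 11.1% of all genes. Of all 19938 genes 7050 lay at or under the background guide and no synthetase gene did, so these shares include many genes with little signal. With the replicate number as a block 3 fell (Eprs joined Wars and Sars) and none rose, where 3.12% of all genes fell and 4.02% rose.

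**Figure D1:**
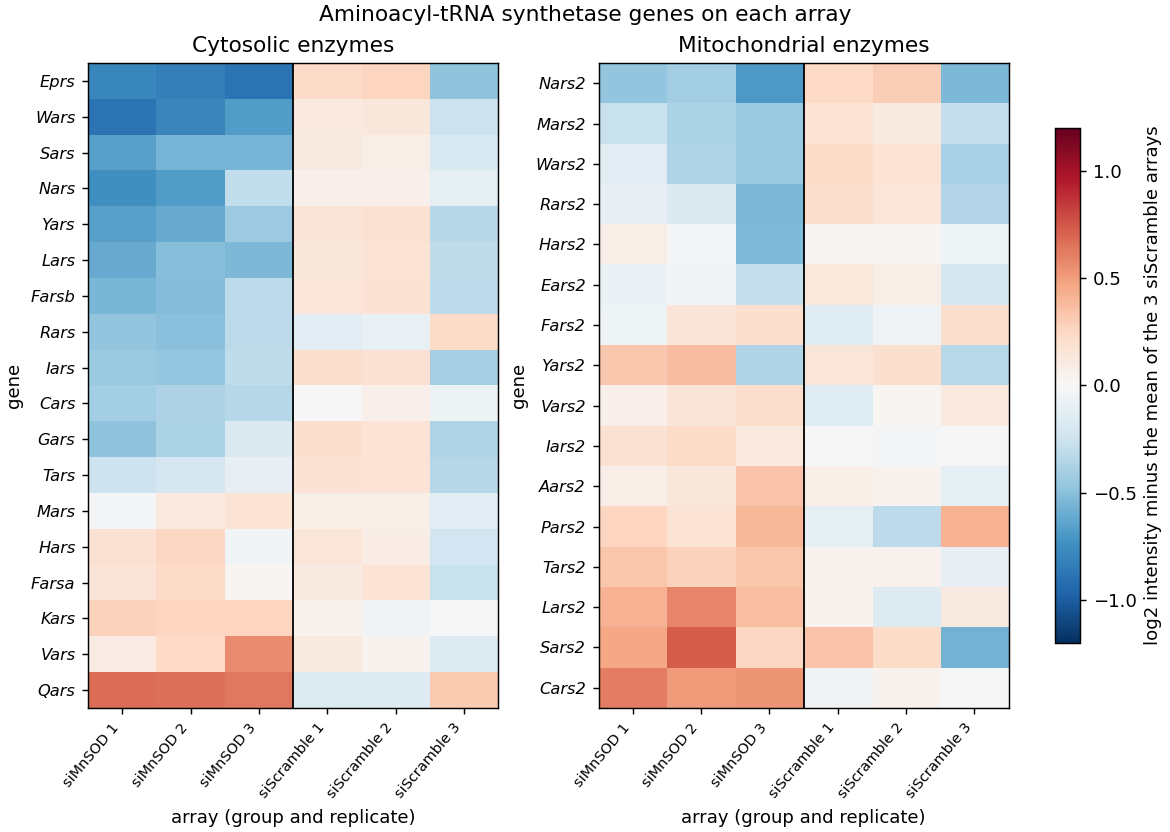
Each row is a synthetase gene, each column an array, and the colour is the log2 intensity minus the mean of the 3 siScramble arrays, for 18 cytosolic (left) and 16 mitochondrial genes (right), ordered by fitted difference. The siMnSOD columns are blue for the upper 12 cytosolic genes, and siScramble array 3 is bluer than siScramble arrays 1 and 2 for 15 of the 18.

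Wars encodes the enzyme for tryptophan and, in many cell types, an interferon-inducible protein. It read 586, 624 and 681 units with siMnSOD and 1174, 1189 and 903 with siScramble. All siMnSOD arrays were below all siScramble arrays, and siScramble array 3 was the lowest of its group. The log2 difference was −0.78 (SE 0.14, adjusted p = 0.036), a level of 58.2% of the control.

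Sars, for serine, was also lower on every siMnSOD array. It read 1872, 1995 and 2004 units with siMnSOD and 3178, 3106 and 2589 with siScramble, a log2 difference of −0.59 (SE 0.12, adjusted p = 0.048). Each of these calls was lost without any 1 array other than siScramble array 3 (adjusted p from 0.062 to 0.17 for Wars and from 0.087 to 0.2 for Sars) and after centring arrays on their medians (0.12 and 0.2). Both directions held in each of these.

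Eprs, whose product charges both the glutamate and the proline tRNA and sits in the complex, had the most negative difference of all members. It read 1131, 1097 and 1049 units with siMnSOD and 2272, 2319 and 1386 with siScramble. The groups did not overlap, but the control spread was wide, and the log2 difference of −0.83 (SE 0.21) had an adjusted p of 0.088. It passed with the replicate block (0.048) and without siScramble array 3 (−1.07, adjusted p = 0.0025).

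Qars, the complex's glutamine enzyme, went the other way. It read 1014, 1008 and 987 units with siMnSOD and 568, 573 and 793 with siScramble, so every siMnSOD array was above every siScramble array. The log2 difference of 0.66 (SE 0.15) had an adjusted p of 0.07, or 0.0047 without siScramble array 3 and 0.035 with median-centred arrays. Kars, the lysine enzyme, whose gene also supplies the mitochondrial form, read 818, 809 and 807 units against 695, 654 and 677. This was a small difference without overlap (0.27, SE 0.09, adjusted p = 0.2).

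The other cytosolic genes without overlap between groups were all lower with siMnSOD and did not pass. They were Cars for cysteine (−0.37, adjusted p = 0.095), Nars for asparagine (−0.57, 0.095), Lars for leucine (−0.55, 0.11), Yars for tyrosine (−0.56, 0.13) and Rars for arginine (−0.43, 0.15). Farsb, the beta subunit of the phenylalanine enzyme, had −0.46 with an adjusted p of 0.2, and its alpha subunit partner Farsa had 0.14 (0.9). The isoleucine enzyme gene Iars had −0.41 (0.34). Its dimmer probe set had −0.51, with 1114, 1230 and 1555 units against 1828, 1792 and 1866, so the low siScramble array 3 of the brighter probe set was not seen there. Gars for glycine, also made in a mitochondrial form from the same gene, had −0.35 (0.45), and Tars for threonine −0.18 (0.81). Vars for valine had 0.30 (0.43), Hars for histidine 0.14 (0.89) and Mars for methionine 0.09 (0.95).

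The cytosolic genes with the largest p were Mars and Farsa. Mars read 845, 929 and 964 units with siMnSOD and 898, 899 and 782 with siScramble, and Farsa 276, 290 and 252 against 267, 277 and 205. The groups overlapped for both genes, and siScramble array 3 was again the lowest control.

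**Figure D2:**
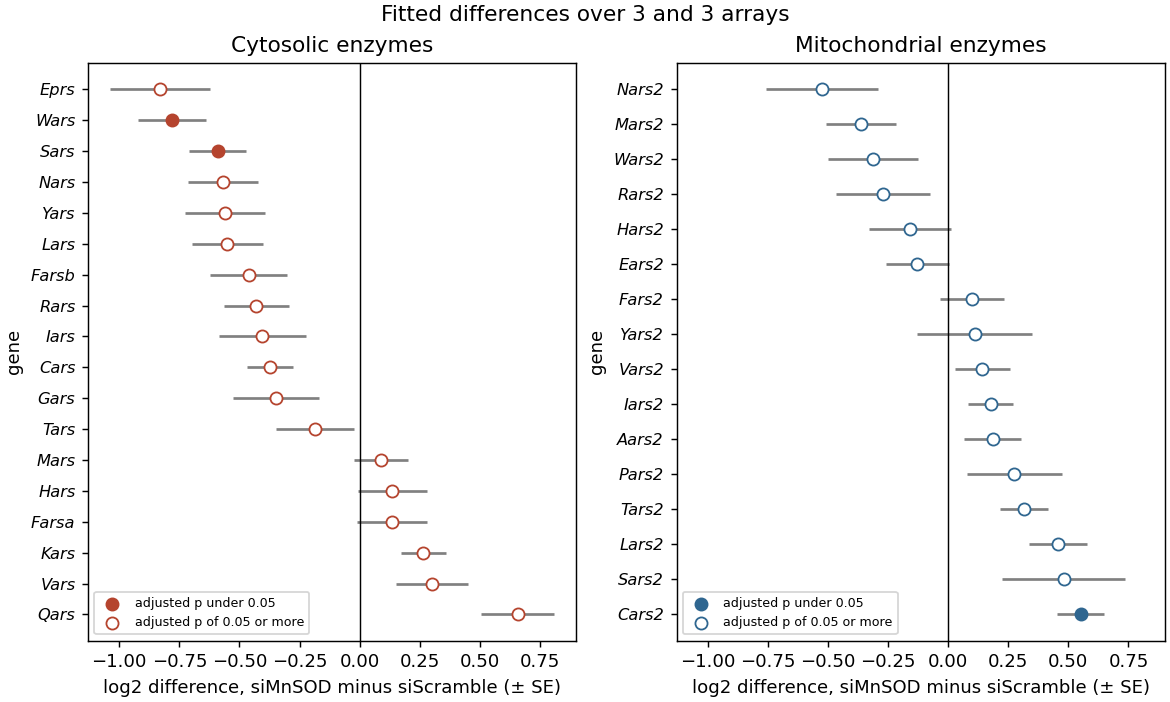
Points are fitted log2 differences (siMnSOD minus siScramble, 3 arrays each) and bars their standard errors, with filled points for an adjusted p under 0.05, for cytosolic (left) and mitochondrial genes (right). The filled points are Wars (−0.78), Sars (−0.59) and Cars2 (0.55).

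Membership in the complex did not separate the genes by direction. The 7 measured complex enzymes ran from −0.83 (Eprs) to 0.66 (Qars), with a median of −0.41, 4 negative and 3 positive. The 11 free enzymes had a median of −0.37, 8 negative and 3 positive, and both called genes, Wars and Sars, were among them. The 3 scaffold genes had small negative differences that did not pass, with −0.13 for Aimp1, −0.05 for Aimp2 and −0.22 for Eef1e1 (adjusted p from 0.93 to 1). Over both compartments, the enzymes of class I and class II, which differ in the fold of the catalytic domain, had medians of −0.27 (19 genes) and 0.10 (15 genes). Eprs joins a class I and a class II enzyme and was counted with class I.

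The cytosolic difference was not the same in each replicate number. For the 18 cytosolic genes the median difference between same-numbered arrays was −0.54 in number 1, −0.49 in number 2 and 0.05 in number 3, with 14, 12 and 8 genes negative. Sars had −0.76, −0.64 and −0.37, Eprs −1.01, −1.08 and −0.40, and Yars −0.81, −0.78 and −0.09. Rars, with −0.34, −0.41 and −0.55, was most negative in number 3. Sod2 retained 39.8%, 47.8% and 17.8% of the control level in numbers 1, 2 and 3. Whether the Sod2 level was related to the cytosolic differences was not tested.

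By the median of the cytosolic genes, the smaller difference in number 3 came with lower values on the control array. For single genes, siMnSOD array 3 was the highest of its group in some (such as Nars, Gars and Vars) and the lowest in others (such as Eprs, Farsa and Hars). In 15 of 18 cytosolic genes siScramble array 3 was the lowest of the controls, against 33.7% of all genes. This was not particular to them. It was also the lowest control for 10 of 16 mitochondrial synthetase genes and 3 of 3 scaffold genes. The same held for 11 of 12 charging and editing partners and 4 of 8 elongation factor genes, described below. The median log2 level of the 18 genes was 9.97, 9.99 and 10.01 on siMnSOD arrays 1, 2 and 3, and 10.42, 10.43 and 9.93 on the siScramble arrays. The 33.7% includes 7050 genes at or under the background guide, and no synthetase gene was among those. Over all genes the median log2 level was highest on array 3 of each group, 5.37 with siScramble and 5.38 with siMnSOD. Why siScramble array 3 was lower in the cytosolic genes was not tested.

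**Figure D3:**
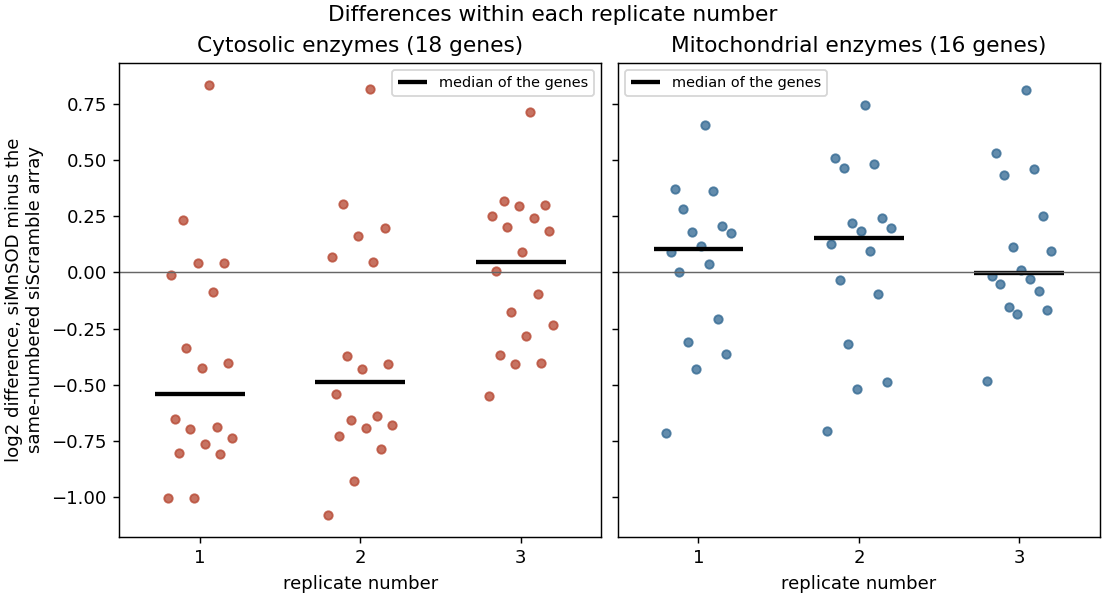
Each point is a gene's log2 difference between the siMnSOD and the siScramble array of the same replicate number, and the bar is the median of the 18 cytosolic (left) or 16 mitochondrial genes (right). The cytosolic medians are −0.54, −0.49 and 0.05, and the mitochondrial ones 0.11, 0.15 and −0.0021.

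With arrays 1 and 2 of each group alone, 12 of 18 cytosolic genes fell and 1 rose, where 9.69% of all genes fell and 11.8% rose. The 12 were Wars, Sars, Eprs, Nars, Yars, Lars, Farsb, Iars, Gars, Cars, Tars and Rars, from −0.37 (Rars, adjusted p = 0.019) to −1.04 (Eprs, adjusted p = 0.001). Qars rose by 0.83 (adjusted p = 0.0017). Farsa, Hars, Kars, Mars and Vars did not pass. With 2 arrays a group this fit rests on the small spread between arrays 1 and 2. It leaves out number 3, where the cytosolic median difference was 0.05. Its counts, here and below, are therefore not independent support.

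Of the cytosolic enzymes 13, with 12 of them measured, are often listed as induced by ATF4. Their median was −0.48, with 10 negative, 2 positive (Vars and Mars), 2 called lower and 7 lower without overlap, where 1.58% of all genes were called lower and 9.73% were lower without overlap. The 6 measured cytosolic enzymes outside that list (Farsa, Farsb, Hars, Kars, Qars and Rars) had a median of 0.14, with 4 positive and 2 negative. In arrays 1 and 2 alone, 10 of the 12 fell and none rose (9.69% and 11.8% of all genes), and of the 6 others 2 fell (Farsb and Rars) and 1 rose (Qars). Of the 3 controls, siScramble array 3 was the lowest for 12 of the 12 and for 3 of the 6. The list of ATF4-responsive enzymes, like the others, was chosen with earlier results of these data known. Its difference from the 6 other enzymes was not tested.

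Genes of uncharged tRNA sensing and of the ATF4 arm are set beside them. Of 14, 5 fell and none rose, with a median of −0.68, where 1.58% of all genes fell and 2.17% rose. The 5 were Trib3, a pseudokinase that restrains the pathway (−1.65, SE 0.30, adjusted p = 0.035), the glutathione-degrading enzyme gene Chac1 (−1.46, SE 0.25, 0.031), the amino acid sensor gene Sesn2 (−1.17, SE 0.21, 0.033), Ddit3, which encodes CHOP (−2.68, SE 0.52, 0.043), and Cebpg, which encodes a dimer partner of ATF4 (−1.18, SE 0.23, 0.046). With the replicate block 3 fell (Ddit3, Cebpg and Cebpb), where 3.12% of all genes fell. Each of the 5 calls was lost without siMnSOD array 1 or 2 or siScramble array 1 or 2 (adjusted p from 0.11 to 0.19) and with median-centred arrays (0.051 to 0.12). Ddit3, Cebpg and Sesn2 were also lost without siMnSOD array 3 (0.05 to 0.11). Atf4 itself read 805, 946 and 676 units with siMnSOD and 1527, 1522 and 824 with siScramble. Its groups overlapped through siScramble array 3, and the difference of −0.63 (SE 0.27) had an adjusted p of 0.31. Asns, the asparagine synthetase gene, an ATF4 target that is not a tRNA enzyme, had −0.25 (adjusted p = 0.64), and Eif2ak4, which encodes GCN2, −0.04 (adjusted p = 1). On siScramble array 3, Trib3 read 1022 units against 1860 and 1948 on the other controls, and Ddit3 155 against 624 and 604. That array was the lowest control for 11 of the 14 genes, against 33.7% of all genes. The 33.7% includes 7050 genes at or under the background guide, and none of the 14 was among those.

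The promoters are shown because ATF4 acts through a composite C/EBP-ATF element whose core can be written TGATGNAA (TTNCATCA on the other strand). RefSeq windows of 300 bases (250 before to 50 after the start site, build GRCm38.p6) were found for 27 of the 36 members and searched for these letters on both strands. Of 13 cytosolic genes 5 held a match (Aars, Gars, Iars, Tars and Yars), and of 14 mitochondrial genes none did. Among all 27025 genes with such windows 4.51% held one. The 5 genes are all on the list of ATF4-responsive enzymes. A match is a run of letters and not evidence of binding. Eprs and Sars did not have these letters in this window. Capitals mark the match in each sequence, and each is written 5′ to 3′ on the strand of the gene.

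In Gars (plus strand, 150 bases up to the start site, chr6:55037851-55038000) the match lies at bases −30 to −23, and in Tars (minus strand, 150 bases up to the start site, chr15:11399659-11399808) at −15 to −8. In Yars (plus strand, chr4:129189895-129189924) it lies just past the start site at bases 4 to 11, and in Iars (plus strand, chr13:49682126-49682155) at 8 to 15, each shown in 30 bases.
Gars: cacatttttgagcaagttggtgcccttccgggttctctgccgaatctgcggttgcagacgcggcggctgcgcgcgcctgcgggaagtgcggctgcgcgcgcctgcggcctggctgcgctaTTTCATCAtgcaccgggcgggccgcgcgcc
Tars: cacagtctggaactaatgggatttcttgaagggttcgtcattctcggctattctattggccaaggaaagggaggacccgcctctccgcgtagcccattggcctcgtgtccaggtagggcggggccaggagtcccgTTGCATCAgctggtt
Yars: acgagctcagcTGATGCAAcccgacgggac
Iars: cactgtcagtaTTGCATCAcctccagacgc

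The values of the 4 measured genes with a match are given here because of the match. Gars read 2676, 2869 and 3308 units with siMnSOD and 4306, 4180 and 2908 with siScramble. Iars read 1876, 1843 and 2066 against 2949, 2901 and 1938, and Tars 997, 1031 and 1111 against 1340, 1332 and 939. In these 3 genes siScramble arrays 1 and 2 were above every siMnSOD array and siScramble array 3 was not, so the groups overlapped. Yars read 343, 355 and 398 units against 600, 611 and 425, with siScramble array 3 again the lowest control but no overlap. Some genes without a match had like values: Farsb read 862, 880 and 1016 units against 1397, 1424 and 1013. For Eprs and Sars, also without a match, siScramble array 3 was the lowest control too. These 3 had negative differences (−0.46, −0.83 and −0.59). Qars (0.66), Kars (0.27), Farsa (0.14) and Mars (0.09), which had no match either, had positive ones. In arrays 1 and 2 alone all 4 measured genes with a match fell, by 0.61, 0.65, 0.40 and 0.80 on the log2 scale for Gars, Iars, Tars and Yars (adjusted p from 0.0021 to 0.015). Of all genes 9.69% fell there, and of the 18 cytosolic genes 12 did. Without a match, Eprs, Farsb and Sars also fell there, Qars rose, and Kars, Farsa and Mars did not pass. Wars, Nars, Lars, Cars and Rars, which also fell there, had no window in the promoter table.

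Other motifs were also searched on both strands. The E-box CACGTG was present in 5 of 27 members (Aars, Ears2, Farsb, Iars and Tars) and 8.09% of all genes, and the ETS motif CCGGAAGT in 3 (Farsa, Mars and Rars2) and 4.31%. The full cyclic AMP element TGACGTCA, the C/EBP motif TTGCGCAA and the NRF1 site were in none (2.03%, 0.207% and 1.07% of all genes). The shorter TGACGTNN, which contains the full element, was in 4 (Aars2, Eprs, Nars2 and Wars2) and 8.36%.

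Mitochondrial synthetase genes did not share the direction of the cytosolic ones. Of 16 measured, 10 had positive and 6 negative differences, with a median of 0.13 and a range from −0.52 (Nars2) to 0.55 (Cars2). Cars2 rose and none fell, where 2.17% of all genes rose and 1.58% fell. The groups did not overlap for 5 genes that were higher (Cars2, Lars2, Tars2, Iars2 and Aars2) and for none that were lower, against 11.1% and 9.73% of all genes. Aars2 was separated only barely, by 62.96 units on siMnSOD array 1 against 62.88 on siScramble array 1. With the replicate block Cars2 was again the only call (adjusted p = 0.033).

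Cars2, the mitochondrial cysteine enzyme, read 96.7, 90.0 and 91.1 units with siMnSOD and 61.3, 65.2 and 63.1 with siScramble. It had narrow groups without overlap, and array 3 was not apart from the others in either group. The log2 difference was 0.55 (SE 0.10, adjusted p = 0.032), with 0.66, 0.46 and 0.53 in numbers 1, 2 and 3. The call was lost without any 1 array other than siScramble array 3 (adjusted p from 0.059 to 0.15), after centring arrays (0.054) and with an intensity trend (0.075), while the difference stayed between 0.52 and 0.64 in all of these.

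Lars2, for leucine, read 133, 149 and 128 units with siMnSOD and 103, 89.1 and 107 with siScramble, without overlap (0.46, SE 0.12, adjusted p = 0.1). Tars2, for threonine, read 357, 344 and 358 against 293, 295 and 265, also without overlap (0.31, SE 0.10, adjusted p = 0.16). Both pointed the same way in every replicate number.

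Mars2, the methionine enzyme, was on the negative side. It read 105, 96.7 and 92.7 units with siMnSOD and 141, 136 and 104 with siScramble, and the groups overlapped narrowly (−0.36, SE 0.14, adjusted p = 0.28). Nars2, for asparagine, read 177, 184 and 152 against 290, 300 and 169, with siScramble array 3 the lowest control, as in most cytosolic genes (−0.52, SE 0.23, adjusted p = 0.34). In arrays 1 and 2 alone 4 of the 16 fell (Nars2, Mars2, Wars2 and Rars2, from −0.31 to −0.71) and 3 rose (Cars2, Lars2 and Pars2, from 0.42 to 0.56), where 9.69% of all genes fell and 11.8% rose.

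The remaining mitochondrial genes had adjusted p-values between 0.47 and 1. Those with positive differences were Sars2 (0.48), Pars2 (0.28), Aars2 (0.19), Iars2 (0.18), Vars2 (0.14), Yars2 (0.11) and Fars2 (0.10), and those with negative ones Wars2 (−0.31), Rars2 (−0.27), Hars2 (−0.16) and Ears2 (−0.13). Sars2 was widely spread, with 139, 167 and 120 units against 128, 117 and 68.3. The genes with the largest p were Yars2, which read 228, 235 and 142 units with siMnSOD and 201, 207 and 144 with siScramble, and Fars2, with 133, 154 and 159 against 125, 134 and 157. For Yars2 array 3 was the lowest in both groups, and for Fars2 it was the highest in both.

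**Figure D4:**
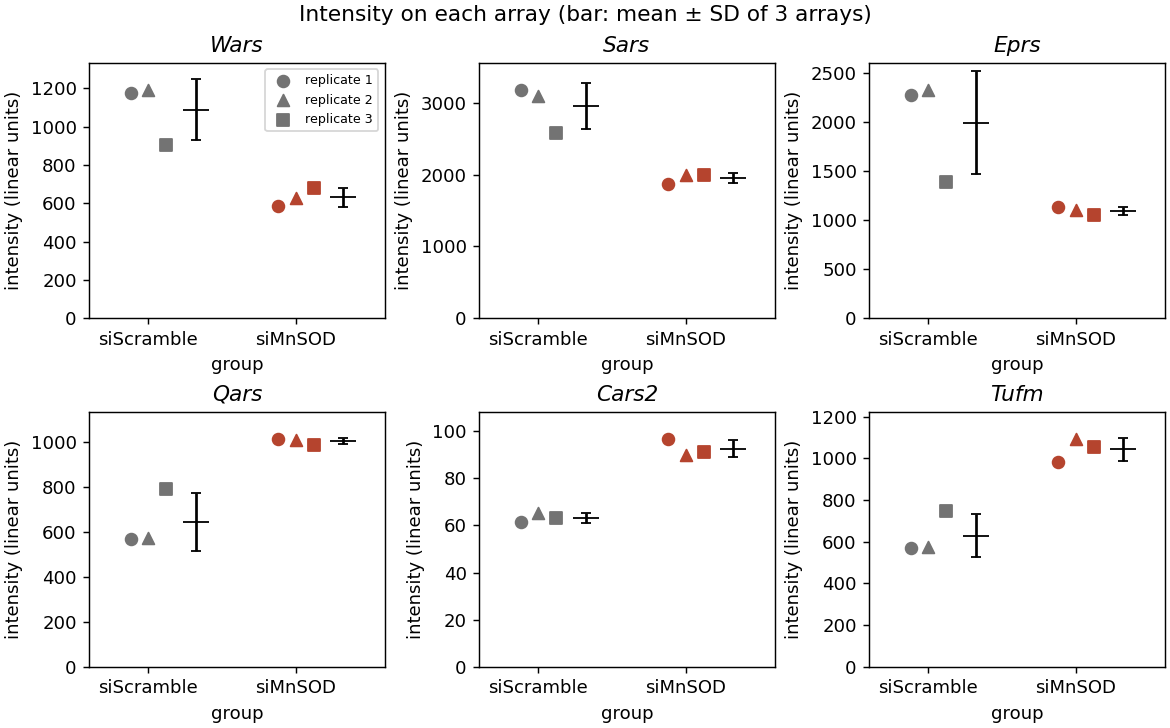
Points are the intensity on each array in linear units for Wars, Sars, Eprs, Qars, Cars2 and Tufm, with a bar for the mean ± SD of 3 arrays. The groups do not overlap in any of the 6 panels, and siScramble replicate 3 lies closer to the siMnSOD points than its companions in all panels except Cars2.

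The enzymes of the same amino acid could be set against each other in 16 pairs, in which Eprs and Fars2 each appear in 2. The quantity compared was the change between groups in the log2 ratio of the cytosolic to the mitochondrial signal within an array. It was negative in 12 pairs and positive in 4, with a median of −0.53. The ratio did not overlap between groups in 9 negative and 2 positive pairs. Both Eprs pairs are among the 9, and no share over other gene pairs was computed to set beside these counts. Each of these 11 reached p = 0.1 in an exact two-sided permutation test, the smallest value that 3 against 3 arrays can give, and 0.145 after adjustment over the 16 pairs, so no pair could pass. The most negative were Eprs to Pars2 (−1.11), Sars to Sars2 (−1.07), Lars to Lars2 (−1.01) and Cars to Cars2 (−0.92).

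For cysteine, where both arms were tight, the ratio was 3.66, 3.80 and 3.81 on the siMnSOD arrays and 4.72, 4.69 and 4.62 on the siScramble arrays in log2 units. For leucine it was 3.23, 3.15 and 3.35 against 4.34, 4.58 and 3.84. Every siMnSOD array lay below every siScramble array for both amino acids. Methionine and histidine ran opposite, with changes of 0.45 and 0.29 without overlap. For asparagine (−0.05) and arginine (−0.16), both enzymes had negative differences, and the ratios overlapped.

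**Figure D5:**
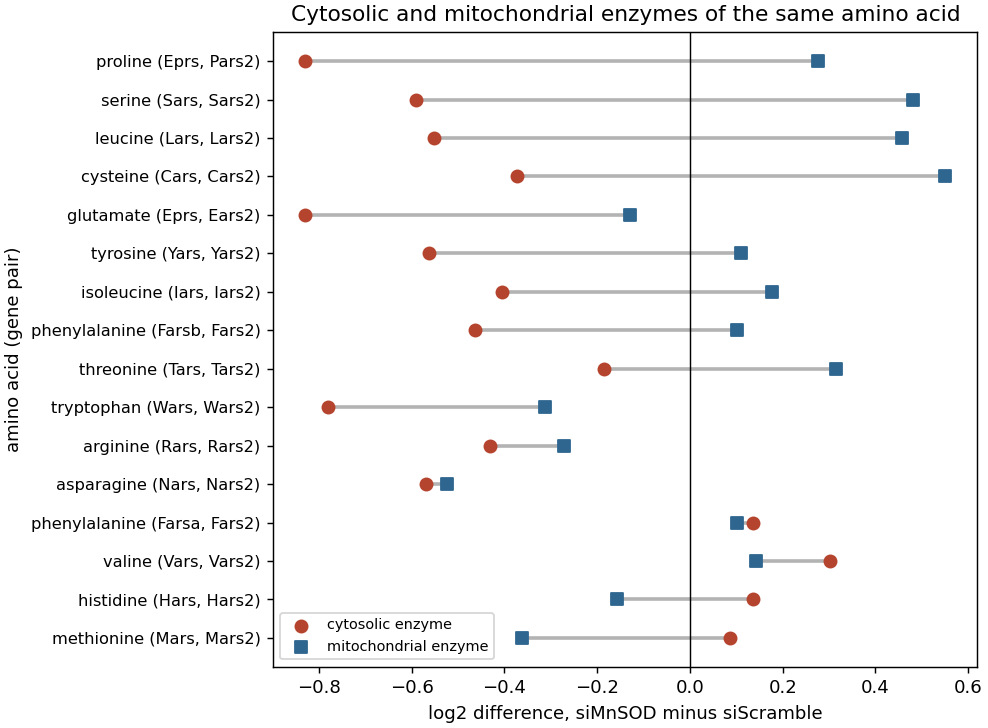
For each pair of enzymes of 1 amino acid, the circle is the fitted log2 difference (siMnSOD minus siScramble) of the cytosolic gene and the square that of the mitochondrial gene. The circle lies left of the square in 12 of 16 pairs, and the widest gap is that of Eprs and Pars2 (−0.83 and 0.28).

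Partners that complete or use the charged tRNAs were examined in 2 lists. None of 12 charging and editing partners passed (median 0.04), where 2.17% of all genes rose and 1.58% fell. The smallest p-values belonged to Gatb (0.36, SE 0.11, adjusted p = 0.13) and Qrsl1 (0.32, SE 0.12, adjusted p = 0.22), which encode subunits of the enzyme that makes mitochondrial glutaminyl-tRNA, to Tarsl2, a second cytosolic threonine enzyme (0.63, SE 0.20, adjusted p = 0.17), and to Aarsd1, which edits mischarged alanine tRNA (0.40, SE 0.14, adjusted p = 0.21). All 4, picked here by p-value, were higher on every siMnSOD array than on any siScramble array. Gatc, for another subunit of that enzyme, was lower without overlap (−0.17, adjusted p = 0.56). Of all genes 11.1% were higher and 9.73% lower without overlap.

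Of 8 measured elongation factor genes 1 rose and none fell (median 0.22), where 2.17% and 1.58% of all genes did. It was Tufm, the mitochondrial factor that delivers charged tRNA to the ribosome, which read 981, 1092 and 1054 units with siMnSOD and 567, 573 and 748 with siScramble (0.74, SE 0.14, adjusted p = 0.04). Gfm1, the mitochondrial translocation factor, read 585, 664 and 537 against 424, 393 and 407 (0.54, SE 0.12, adjusted p = 0.058). Both were higher on every siMnSOD array, and with the block 2 rose, where 4.02% of all genes did. The call of Tufm was lost without any 1 array other than siScramble array 3 (adjusted p from 0.09 to 0.19) and with quantile normalization (0.057). Their cytosolic counterparts Eef1a1 (0.01) and Eef2 (−0.06) each had an adjusted p of 1.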

How the data were processed

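The deposited intensities are normalized by the authors, 1 linear value per probe set and array of Affymetrix Mouse Gene 1.0 ST. Per the submitters' processing notes they used RMA, and per the labels' design text MAS5. No version of either is stated. A platform annotation gave exactly 1 symbol for 21789 of 35557 probe sets, and symbols were updated through a RefSeq table (GRCm38.p6) used for names. The brightest probe set stood for a gene, which mattered for 1 member, Iars. No filter on low values was used. Log2 values of 21559 rows entered a linear model in limma 3.58.1 (R 4.3.3) with group as the only term and Benjamini-Hochberg adjustment over all rows, and "fell" or "rose" means an adjusted p under 0.05. The script was tested on simulated data.

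Members and lists were chosen with earlier results of these data known. Full values were given by rule for called members and the 4 smallest and 2 largest p-values in each compartment, and otherwise for genes with the promoter motif or an overlap of interest, chosen after their values were seen. Deviations of same-numbered arrays from their group means correlated at 0.30, 0.29 and 0.56, but arrays 1 and 2 correlated more across numbers (0.41 and 0.47). The main fit did not pair arrays. Same-numbered arrays were paired only in the replicate block and in the differences given by replicate number. Alternatives were the replicate block, other scalings, probe set rules, an intensity trend, array weights and arrays left out. The number of arrays limits the precision.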

Additional observations from a re-analysis of the deposited data

How the results depend on the processing

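Over 15 alternative settings, 432 of 510 values of single members kept their direction and their side of the threshold, 52 passed newly, 19 lost the call and 7 changed sign: Mars with array weights (−0.024) and in arrays 1 and 2 alone (−0.020), Hars2 in arrays 1 and 2 alone (0.00405), and with 1 array left out Hars2 (−0.275 to 0.0294), Yars2 (−0.0557 to 0.347) and Farsa (−0.000101 to 0.216). Called members of the cytosolic set (2 lower, 0 higher) numbered 0 and 1 with median-centred arrays, 4 lower with quantile normalization, 12 and 2 with array weights, and 12 and 1 in arrays 1 and 2 alone. Those of the mitochondrial set (0 lower, 1 higher) numbered 0 higher with median-centred arrays and with an intensity trend, 4 and 4 with array weights, and 4 and 3 in arrays 1 and 2 alone. Over all genes (316 lower, 432 higher), the replicate block gave 623 and 801, array weights 2188 and 2486, arrays 1 and 2 alone 1932 and 2343, and centring 140 lower. Centring moved the median of all genes from 0.01 to 0.09 and the mitochondrial median from 0.13 to 0.21. Leaving out 1 array gave 0 to 9 cytosolic genes lower and 0 to 1 higher, 0 to 2 mitochondrial genes lower and 0 to 2 higher, and 25 to 1119 lower and 52 to 1119 higher over all genes, the highest counts in each case without siScramble replicate 3. The cytosolic median then lay between −0.47 and −0.33 and the mitochondrial one between 0.11 and 0.18. Paired by number with the replicate block, Eprs passed and no other member's call changed. The causes were not tested.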
